A study of Mus musculus with 8 samples.

Results

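Ppara, Angptl4 and Nr1i3 are 3 of the 1428 genes in the deposited comparison of mouse colon tumours, and were taken from it by gene name. They encode a lipid-sensing receptor, a secreted target gene of such receptors, and a receptor for foreign compounds. The KO group is 4 colon tumour libraries labelled miR-29ab1Vilin-KO, from mice in which the microRNA cluster miR-29ab1 was disrupted in the intestinal epithelium, and the WT group is 4 libraries labelled Wildtype. All 8 come from C57BL/6N mice whose tumours were induced with the carcinogen azoxymethane together with dextran sodium sulfate, an irritant of the gut lining. The Vilin label is taken to name the villin promoter, which acts in epithelial cells, so other cells of the tumour keep the cluster. The sources used here give no age, nor do they say whether libraries represent different animals, so the p-values reflect spread among libraries that may be technical.

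The peroxisome proliferator-activated receptor alpha, encoded by Ppara, is a nuclear receptor that binds fatty acids, pairs with retinoid X receptors on DNA and turns on genes of fatty acid oxidation and ketone formation. Angptl4 encodes angiopoietin-like 4, a secreted protein that inhibits lipoprotein lipase, and it is a classical target gene of the PPAR family that hypoxia and glucocorticoids also induce. Nr1i3 encodes the constitutive androstane receptor (CAR), which also pairs with retinoid X receptors and turns on genes that modify and export drugs and bile pigments, chiefly in liver and also in gut.

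The values are gene counts divided by a size factor per library (normalized counts). The authors' deposited table holds only genes whose unadjusted p lies below 0.05, so it is a selected list of 1428 genes whose fold changes run larger than those of unselected genes. The adjusted p-values there imply that 19985 genes were tested, of which 7.06% were listed with an adjusted p of their own and 0.04% passed an adjusted p of 0.05. Whole reads recovered from the listed genes sum to between 1316787 and 2180787 per KO library and between 1202677 and 1268646 per WT library, which is not library depth. Among genes listed higher, KO replicate 4 held the top KO value in 75.0%, and among those listed lower it held the bottom one in 59.3%. No row is named for a Mir29 gene, so the disruption itself could not be checked in these values.

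None of the 3 genes passed the adjusted threshold, and each is described here by its values. Ppara and Nr1i3 were listed higher in KO tumours and Angptl4 lower, at adjusted p-values of 0.66, 0.656 and 0.686 for Ppara, Nr1i3 and Angptl4 in the authors' deposited DESeq2 table. Of all listed genes, 58.1% were listed higher and 41.9% lower. The same table gives unadjusted p-values of 0.0255 for Ppara, 0.0218 for Nr1i3 and 0.0319 for Angptl4, which were below 0.05 by the way the table was made.

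The mature microRNAs of the disrupted cluster are shown first because one of the 3 genes carries a match to them. Both lie on the minus strand of chromosome 6 in GRCm38.p6, miR-29a-3p at chr6:31062673-31062694 and miR-29b-3p at chr6:31063025-31063047, with sequences from RefSeq. Capitals mark the seed, bases 2 to 8, which both share.
mmu-miR-29a-3p: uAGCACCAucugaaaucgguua
mmu-miR-29b-3p: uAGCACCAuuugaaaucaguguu
The match to this seed, TGGTGCT, was searched in the longest 3′ untranslated region (UTR) of each gene in GENCODE M21. Angptl4, on chromosome 17, held 1 match, at bases 394 to 400 of a 1637-base UTR, printed here with the match in capitals.
Angptl4 3′ UTR site: ggatacactcaTGGTGCTgttgtaggtgc
The UTRs of Ppara, of 1561 bases, and of Nr1i3, of 1983 bases, held 0 matches in this window. Among UTRs within 10% of the same length, the match was present in 13.3% for Angptl4, 13.7% for Ppara and 18.9% for Nr1i3. The gene with the match was listed lower in the KO libraries, and any effect of the microRNAs on it was not tested. A match of these letters is a description and was not shown here to be a working site.

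Ppara had 21.2, 40.7, 28.5 and 111.5 normalized counts in KO replicates 1 to 4, against 11.7, 12.3, 34.4 and 18.2 in WT replicates 1 to 4. KO replicate 4 stood well above every other library, and WT replicate 3 lay above KO replicates 1 and 3, so the groups overlapped. The means were 50.5 ± 41.5 in KO and 19.1 ± 10.6 in WT (SD, n = 4 each), and the authors' deposited table puts the log2 fold change at 1.40. Its standard error was 0.64 when the recovered reads were refitted with DESeq2. Mean Ppara in KO was 2.64 times that in WT with all libraries and 1.57 times without KO replicate 4. It was 3.59 times the WT mean without WT replicate 3. An edgeR quasi-likelihood refit gave a log2 fold change of 1.39 with all libraries and of 0.65 without KO replicate 4. Ppara is a protein-coding gene on the plus strand of chromosome 15, from 89883354 to 89956391 in the coordinates of the table, which uses gene identifiers made for the C57BL/6NJ strain.

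Angptl4 had 57.8, 16.1, 31.1 and 9.78 normalized counts in KO replicates 1 to 4, against 58.4, 33.9, 93.0 and 84.0 in WT replicates 1 to 4. KO replicate 1 was at the level of WT replicate 1, and WT replicate 2 lay below KO replicate 1, so these groups overlapped too. On average Angptl4 stood at 28.7 ± 21.4 in KO and 67.3 ± 26.7 in WT (SD, n = 4 each), and the authors' deposited table puts its log2 fold change at -1.23, with a standard error of 0.59 in the DESeq2 refit. Mean Angptl4 in KO was 0.43 times that in WT with all libraries, 0.28 times without KO replicate 1 and 0.52 times without KO replicate 4. In the table Angptl4 lies on the minus strand of chromosome 17, from 34953075 to 34960900, as a protein-coding gene. In bulk tumour RNA, fewer cells of a type and less RNA per cell cannot be told apart.

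Nr1i3 was the least abundant of the 3, with 13.5, 16.1, 7.12 and 16.6 normalized counts in KO replicates 1 to 4, against 2.92, 2.05, 6.07 and 7.08 in WT replicates 1 to 4. Every KO library lay above every WT library, as did 41.3% of all genes listed higher, and the groups of 1 of the 3 genes, Nr1i3, did not overlap, beside 44.7% of all listed genes. The lowest KO value, in replicate 3, and the highest WT value, in replicate 4, stood for 8 and 7 reads. With size factors computed from the listed genes by TMM, KO replicate 3 was at 7.24 and WT replicate 4 at 7.78, so that the groups overlapped. The group means were 13.3 ± 4.36 in KO and 4.53 ± 2.42 in WT (SD, n = 4 each), and the authors' deposited table lists 1.55 as the log2 fold change, with a standard error of 0.64 in the DESeq2 refit. Summed reads came to 54 in KO and 18 in WT, a ratio of 2.90 after scaling, with an exact 95% interval of 1.67 to 5.25 that covers counting error only. For Ppara the same ratio was 2.62, with an interval of 2.00 to 3.45 from 206 KO reads and 76 WT reads, and for Angptl4 0.43, with an interval of 0.35 to 0.54 from 120 KO reads and 268 WT reads. Without KO replicate 4 the Nr1i3 KO mean was still 2.70 times the WT mean, against 2.94 times with it. Nr1i3 is annotated on the plus strand of chromosome 1, from 182878365 to 182885096, as a protein-coding gene.

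**Figure D1:**
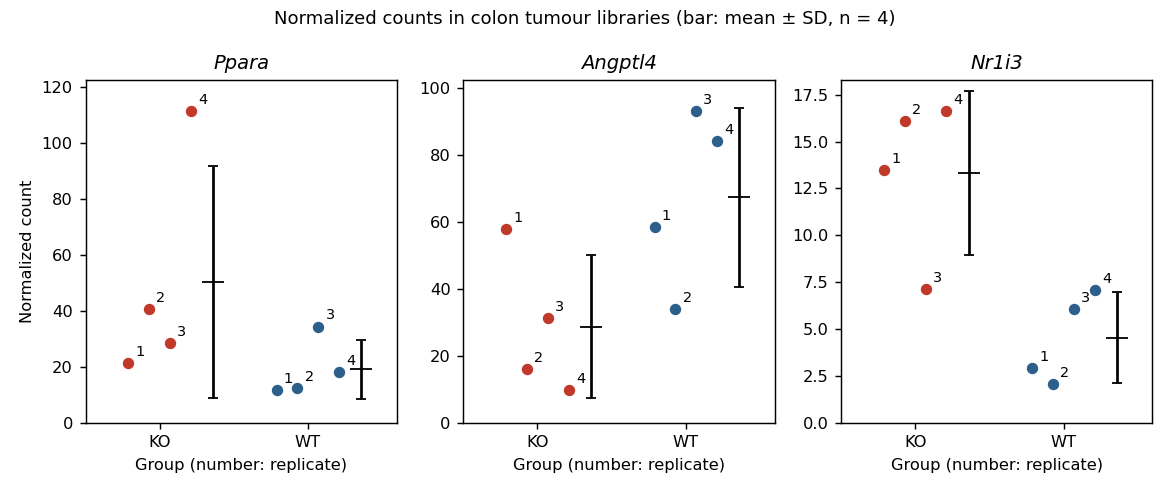
Normalized counts (vertical axes from 0) of Ppara, Angptl4 and Nr1i3 in each library, with the replicate number beside each point and the mean ± SD of 4 libraries as a bar. KO replicate 4 stands highest for Ppara at 111.5, KO replicate 1 reaches the WT range for Angptl4 at 57.8, and for Nr1i3 the lowest KO value is 7.12 and the highest WT value 7.08.

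Levels were compared between genes per kilobase of gene length. In KO libraries Ppara averaged 13.2 ± 10.8 normalized counts per kilobase, Angptl4 8.74 ± 6.51 and Nr1i3 3.02 ± 0.99 (SD, n = 4). In WT libraries the order at the top was turned round, with Angptl4 at 20.5 ± 8.12, Ppara at 4.99 ± 2.76 and Nr1i3 at 1.03 ± 0.55 normalized counts per kilobase (SD, n = 4). Ppara and Angptl4 in KO did not differ beyond their spread.

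Receptor and target were then set side by side in each library. The choice of a gene listed higher and a gene listed lower fixes the direction of their ratio, so the ratio is given with no test. The ratio of Angptl4 to Ppara was 2.73, 0.395, 1.09 and 0.0877 in KO replicates 1 to 4, against 5.00, 2.75, 2.71 and 4.61 in WT replicates 1 to 4. All 4 WT libraries held more than 2.7 times as many Angptl4 as Ppara counts, while the KO libraries ran from a ratio like that of WT replicates 2 and 3 to one at which Ppara was far ahead. On the scale of log2 of the values plus 1, the ratio averaged -0.79 ± 2.05 in KO and 1.79 ± 0.46 in WT (SD, n = 4 each), a difference of -2.58, and KO replicate 1 at 1.41 overlapped WT replicate 2 at 1.39. Within the KO group the orders were exactly opposite: from replicate 1 through 3 and 2 to 4, Ppara went up at each step as Angptl4 went down. In the WT group they were not, since WT replicates 3 and 4 were the highest and next highest for both genes. With 4 libraries a group, no correlation was computed.

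**Figure D2:**
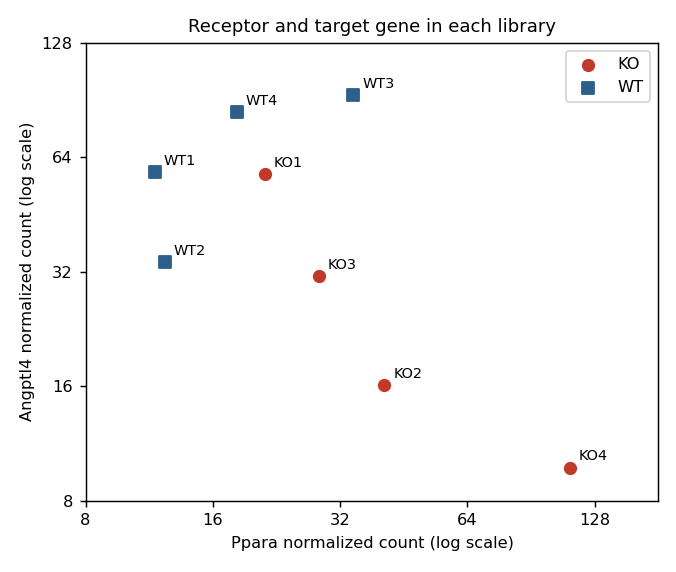
Ppara (horizontal) against Angptl4 (vertical) normalized counts in each of the 8 libraries, both on log scales. The KO libraries descend from 57.8 Angptl4 and 21.2 Ppara counts in replicate 1 to 9.78 and 111.5 in replicate 4, and the WT libraries lie at 33.9 Angptl4 counts or above.

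Other target genes of PPAR alpha were listed in both directions. Of 40 such genes, 4 were listed, beside 7.06% of all genes tested, 2 higher and 2 lower, none past the adjusted threshold, with a median log2 fold change of 0.03, against 0.48 over all listed genes. Acot1, a cytosolic enzyme that splits acyl-CoA, averaged 70.5 ± 10.2 in KO and 114 ± 41.0 in WT, with overlapping groups. Mgll, the lipase of monoacylglycerols, was higher in each KO library than in any WT library, at 148 ± 35.2 in KO and 87.9 ± 14.1 in WT; in the authors' deposited table its log2 fold change is 0.75. Pex11a, which takes part in peroxisome division, stood at 321 ± 287 in KO and 162 ± 18.3 in WT. Its KO mean was 1.11 times the WT mean without KO replicate 4, the library that held 749.5 counts.

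Among the PPAR receptors and their coregulators, all listed genes were on one side. Of 18 genes, 6 were listed (33.3%), beside 7.06% of all genes tested. Each of the 6 was higher in KO, as were 58.1% of all listed genes, with an adjusted p above the threshold. Their median log2 fold change was 0.68 (authors' deposited table), beside 1.00 over all genes listed higher. Ncoa3, a p160 coactivator that binds ligand-loaded nuclear receptors, was separated between groups, with 1060, 1092, 1002 and 2453 normalized counts in KO replicates 1 to 4 and 723.7, 649.3, 963.7 and 510.9 in WT replicates 1 to 4. Its relative Ncoa1 had 935 ± 381 counts in KO and 533 ± 128 in WT, with overlap. Ncor1, a corepressor of unliganded receptors, stood at 3465 ± 389 in KO against 2612 ± 418 in WT, and leaving out KO replicate 4 moved the ratio of means only to 1.32, against 1.33 with it. Ppargc1b, a coactivator of mitochondrial and lipid genes, had 309 ± 271 in KO and 144 ± 24.3 in WT, and its ratio of 2.15 was 1.21 without KO replicate 4. The other two are named because they complete the 6. Pparg, which encodes PPAR gamma, had 774.2, 1048, 977.8 and 1202 counts in KO replicates 1 to 4, against 828.8, 818.8, 529.9 and 683.9 in WT replicates 1 to 4, and KO replicate 1 lay below WT replicates 1 and 2. Ep300, a histone acetyltransferase, had 1668 ± 136 in KO and 1136 ± 382 in WT. In the edgeR refit 5 of the 6 kept their sign at an unadjusted p below 0.05, as did 77.9% of all listed genes. That number was 4 without KO replicate 4, where 51.9% of all listed genes did so. It was 3 without KO replicate 3, 2 without WT replicate 1 and 1 without WT replicate 4. The share of all listed genes was not computed for these last runs, so their counts cannot be set against it.

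Around lipoprotein lipase, which Angptl4 inhibits, 3 of 19 genes were listed (15.8%), beside 7.06% of all genes tested. Lipg, endothelial lipase, averaged 510 ± 540 normalized counts in KO against 196.0 ± 52.9 in WT. KO replicate 4 held 1316 of them, and the other KO libraries averaged 1.23 times the WT level. Abhd5, an activator of intracellular triglyceride lipase, had 649 ± 131 in KO and 446.1 ± 78.8 in WT, with overlap. Apoa5, an apolipoprotein that promotes lipoprotein lipase action, was lower in every KO library, at 0.964, 4.29, 0 and 0 normalized counts in KO replicates 1 to 4, against 8.75, 13.4, 6.07 and 16.2 in WT replicates 1 to 4. Its adjusted p in the authors' deposited DESeq2 table was 0.425. Lpl itself and the angiopoietin-like genes other than Angptl4 were among the unlisted members, whose values are not analysed here.

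Angptl4 is also induced outside the PPAR family, and genes of those responses were looked up in the table, which lists 7.06% of all genes tested. None of 19 hypoxia response genes was listed by the deposited DESeq2 comparison at an unadjusted p below 0.05, and since the table was cut there, the edgeR, DESeq2 and limma refits hold none of them either. Of 10 glucocorticoid response genes, 1 was listed: Dusp1, a phosphatase of MAP kinases, at 598.1 ± 88.1 normalized counts in KO and 776.7 ± 63.7 in WT, with every KO library below every WT library, as in 49.4% of the genes listed lower. The glucocorticoid receptor gene Nr3c1 was listed higher, at 1189 ± 394 in KO and 812 ± 146 in WT.

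Genes that CAR is known to induce were listed higher where they were listed. Of 39 such genes, 4 were listed (10.3%), beside 7.06% of all genes tested. All 4 were higher, as were 58.1% of all listed genes, and none passed the adjusted threshold. Their median log2 fold change was 1.56 (authors' deposited table), beside 1.00 over all genes listed higher. Abcc3, an export pump of the basolateral membrane, had 2668, 2816, 2646 and 5158 normalized counts in KO replicates 1 to 4, against 1904, 2068, 1677 and 1646 in WT replicates 1 to 4, with no overlap, and its KO mean was 1.49 times the WT mean without KO replicate 4. The drug efflux pump Abcb1a, the aldehyde dehydrogenase Aldh1a7 and the sulfotransferase Sult1d1 did not keep their ratios without that library. Abcb1a had 918.8, 2149, 932.5 and 11805 in KO replicates 1 to 4, against 762.6, 1395, 2082 and 553.4 in WT replicates 1 to 4, so that only KO replicates 2 and 4 exceeded WT replicate 3. The ratio of KO to WT means with and without KO replicate 4 was 3.30 and 1.11 for Abcb1a, 3.22 and 1.14 for Aldh1a7, and 2.69 and 0.98 for Sult1d1. Nr1i3 itself was 2.94 and 2.70 on the same measure. The Cyp2b genes, the best known CAR targets, were not listed.

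Of 12 partners and regulators of CAR, 2 were listed (16.7%), beside 7.06% of all genes tested. Both were higher, as were 58.1% of all listed genes. They were Nr3c1, given above, and Hnf4a, a nuclear receptor that supports liver and gut epithelial identity. Hnf4a had 8832, 9590, 9197 and 22661 normalized counts in KO replicates 1 to 4, against 5904, 7600, 7820 and 7532 in WT replicates 1 to 4. Every KO library was above every WT library, and the ratio of means was 1.74, or 1.28 without KO replicate 4. Of 38 other nuclear receptor genes, 3 were listed (7.89%), all higher, close to the 7.06% of all genes tested. Hnf4g, close to Hnf4a, had 256 ± 171 in KO and 115.2 ± 35.1 in WT, without overlap. Esrrg, an estrogen-related receptor, had 115 ± 175 in KO and 27.4 ± 14.6 in WT, with overlap. The ratio of means was 1.48 for Hnf4g and 1.02 for Esrrg when KO replicate 4 was left out.

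**Figure D3:**
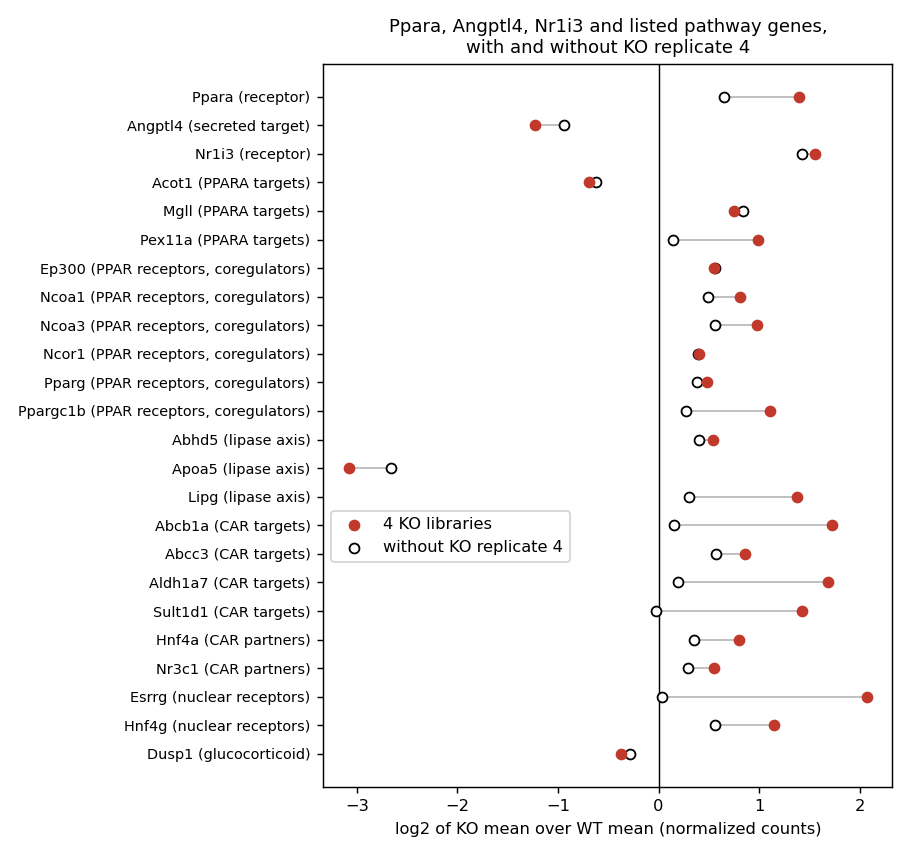
Log2 ratio of the KO mean to the WT mean of normalized counts for Ppara, Angptl4, Nr1i3 and 21 of the 23 listed pathway genes, with 4 KO libraries (filled) and without KO replicate 4 (open). Nr1i3 and Mgll shift little, as do others such as Ep300, Ncor1 and Acot1. Ppara moves to a ratio of 1.57, and Abcb1a, Aldh1a7, Sult1d1 and Esrrg end near ratios of 1.11, 1.14, 0.98 and 1.02.

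In all, 23 of 192 genes in the 8 pathway lists were listed (11.98%, beside 7.06% of all genes tested). Of the 23, 19 were higher and 4 lower, where 58.1% of all listed genes were higher and 41.9% lower. In 16 of the 19 the top KO value was in KO replicate 4, beside 75.0% of all genes listed higher. The groups did not overlap in 7 of the 23, beside 44.7% of all listed genes. An edgeR refit with all libraries kept the sign of 13 of the 23 at an unadjusted p below 0.05, beside 77.9% of all listed genes. It kept 18 without KO replicate 1, 16 without KO replicate 3, 12 without KO replicate 2 and 8 without KO replicate 4, beside 51.9% of all listed genes without KO replicate 4. Leaving out WT replicates 2, 3, 1 and 4 kept 11, 11, 7 and 6. Except for KO replicate 4, the share of all listed genes with a library left out was not computed. Those counts therefore cannot be set against all listed genes.

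Markers of some other cells were highest in KO replicate 4, and those of others were not. The counts of listed markers stand beside 7.06% listed of all genes tested. Of all listed genes, 58.1% were higher and 41.9% lower. The marker lists were chosen with earlier results of these data known. Of 13 colonocyte markers 3 were listed, Cdhr5, Mep1a and Ceacam20, all higher in KO, with summed levels of 9963, 10953, 9755 and 29307 normalized counts in KO replicates 1 to 4, against 7679, 9257, 8461 and 6379 in WT replicates 1 to 4. All 10 B cell markers were listed higher, from a list chosen with those earlier results known. Their sums were 181, 869, 343 and 2979 in KO replicates 1 to 4, against 137, 91.4, 158 and 279 in WT replicates 1 to 4. KO replicate 4 was thus highest in both sums and in Ppara, and lowest in Angptl4; the part of these cells in either gene was not tested. The order of the KO replicates in the B cell sum, 1, 3, 2 and 4, was also their order in Ppara. It was not particular to B cells. The T cell sum, the sums of CAR partners and of other nuclear receptors, and Apob had the same order. Of 10 hepatocyte markers Apob alone was listed, a gene that gut epithelium also uses, and Alb, which defines hepatocytes, was not among the listed genes. None of 8 adipocyte, 8 general epithelial, 10 macrophage or 9 small intestinal enterocyte markers was listed. The general epithelial markers, which define the labelled tissue, are therefore not analysed here. The tissue is given as labelled. The 3 listed colonocyte genes had counts in every library but do not establish it. Of the remaining marker lists, 3 of 9 T cell, 2 of 8 fibroblast, 1 of 8 endothelial and 1 of 6 smooth muscle genes were listed higher, and 1 of 8 neutrophil genes lower. The T cell and fibroblast sums were highest in KO replicate 4, but Trbc1 and Mfap5 had their lowest KO values there, at 60.7 and 5.87. Endothelial Lyve1 was highest in KO replicate 1, at 159 normalized counts against 91.0 in KO replicate 4. Smooth muscle Myocd was highest in KO replicate 3, at 24.0 against 10.8 in KO replicate 4.

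**Figure D4:**
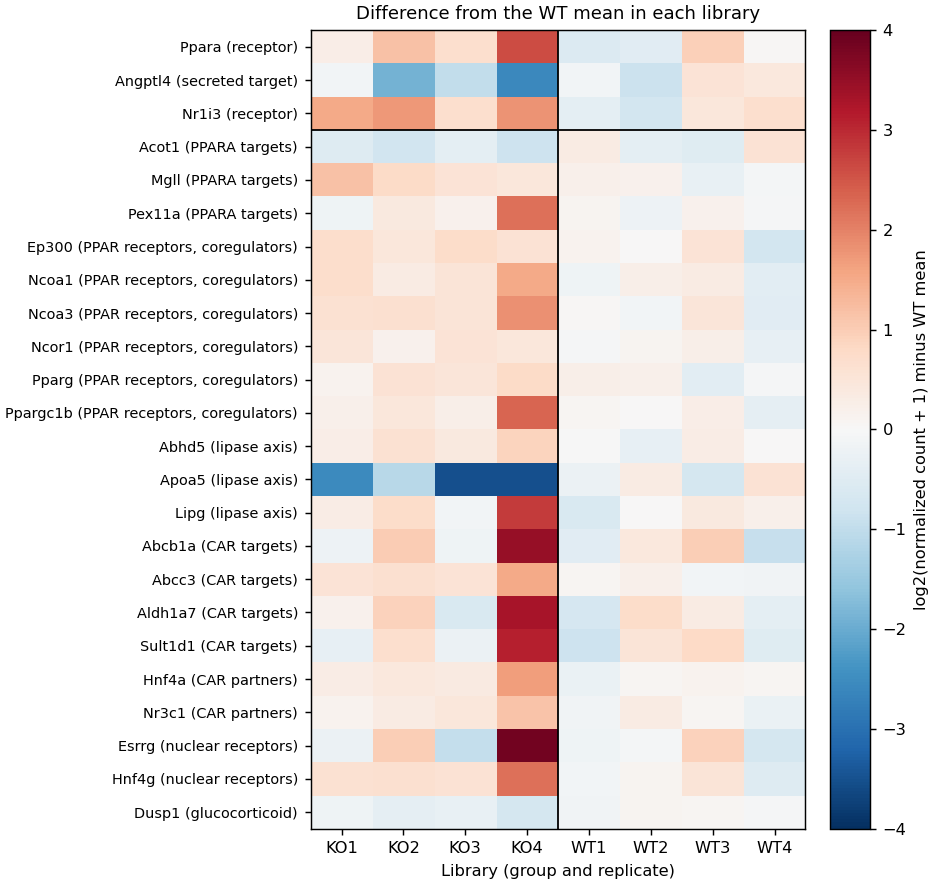
Difference of log2(normalized count + 1) from the WT mean in each library (columns, KO left of WT) for Ppara, Angptl4, Nr1i3 and the same 21 listed pathway genes (rows), with red above and blue below the WT mean. KO replicate 4 carries the strongest red for Ppara and for most listed receptors and CAR targets, while Nr1i3 is red in all 4 KO libraries.

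The genes most like each of the 3 over the 8 libraries were found by Pearson r of log2(normalized count + 1) among 1191 listed genes with a mean of at least 10 normalized counts. Such values share the group difference by which every gene was listed and share KO replicate 4, and are given as a description. For Ppara these were Celf3, an RNA-binding protein (r = 0.97), Txnip, an inhibitor of thioredoxin (r = 0.96), and Mgat3, a glycosyltransferase (r = 0.96), beside a median r of 0.47. With the group means subtracted they were Abhd14b (r = 0.98), Celf3 (r = 0.96) and the potassium channel gene Kcnk5 (r = 0.96), beside a median of 0.16. Celf3 followed Ppara library by library, with 38.6, 58.9, 46.3 and 211.3 normalized counts in KO replicates 1 to 4 and 25.3, 26.7, 49.6 and 27.3 in WT replicates 1 to 4.

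For Angptl4 the closest genes were Aldh1a2, which makes retinoic acid (r = 0.97), the keratin gene Krt90 (r = 0.96) and Btnl9, a butyrophilin-like gene (r = 0.95), beside a median of -0.44. With group means subtracted they were Has3, a hyaluronan synthase (r = 0.95), Aldh1a2 (r = 0.94) and Krt90 (r = 0.93), beside a median of -0.14. All 4 were listed lower in KO, with Krt90 at 94.9 ± 56.1 normalized counts in KO against 281 ± 153 in WT and Has3 at 46.2 ± 8.37 in KO and 75.6 ± 4.59 in WT.

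For Nr1i3 they were Plec, which encodes the cytoskeletal linker plectin (r = 0.96), Vps13c (r = 0.95) and Ccdc28b (r = 0.93), beside a median of 0.45. With the group means subtracted the nearest were the non-coding RNA genes Snhg15 (r = 0.94) and Snord83b (r = 0.94), both listed lower in KO, and Plec (r = 0.87), beside a median of 0.08. Counts of 2 to 17 reads per library stand behind Nr1i3, so counting error alone moves these values. KO replicate 3, the lowest KO library for Nr1i3, was also lowest for Plec, at 13078 counts against 14637 to 14689 in the other KO libraries.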

How the data were processed

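Per the labels' protocols, tumour RNA was harvested with TRIzol and a NEBNext Ultra Directional kit, which keeps strand, made the libraries. HISAT2, DESeq2 and the build GRCh38, a human build, appear in the submitters' processing notes, whereas the identifiers in the table belong to the C57BL/6NJ annotation, so its coordinates are given as deposited and were set against no other build. The counting method is not given in the sources used. The deposited table holds a normalized signal per library (counts divided by size factors) and, from the authors' KO over WT comparison, a log2 fold change with its p-value before and after adjustment. The deposited values of each library became whole reads, within 0.001, for 100% of genes. Each listed gene has a p below 0.05. The number of genes tested was computed from ratios of adjusted to unadjusted p-values, with 218 of 231 steps within 1 gene of 19985. A further 18 genes have an adjusted p of exactly 1 and were treated as having none.

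Groups came from the sample titles. The main result is the authors' comparison, as the design set for a selected table. Recovered reads were refitted in R 4.3.3 by the quasi-likelihood test of edgeR 4.0.16, by DESeq2 1.42.0 and by limma-trend (limma 3.58.1), with Benjamini-Hochberg adjustment over 19985 genes; simulated data were used to test the edgeR code. The refits see selected genes alone, so they are not independent tests. The chi-square between libraries of one group, divided by its degrees of freedom, was 19.8 or more, and none were merged. The genes described and the lists were chosen with earlier results of these data known. Named pathway genes are the listed genes of each list, up to 4 by smallest p; Pparg, Ep300 and the genes named as unlisted fall outside that rule. The values of 2 listed pathway genes are counted but not reported here.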

Additional observations from a re-analysis of the deposited data

Results flagged for a closer look

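A library was flagged when its gap to the nearest of its group passed Dixon's critical share of the group's range. This happened 20 times in 86 groups of 4. Chance flags about 1 in 20 groups when values are independent and normal. That rate does not hold here, since the groups share the same 8 libraries and some genes were picked for likeness to Ppara. Of the 20 flags, 17 were KO replicate 4 as the highest library. None was a value of Ppara, Angptl4 or Nr1i3. Among the genes induced by CAR, KO replicate 4 held 11805 normalized counts of Abcb1a, 5158 of Abcc3, 339.5 of Aldh1a7 and 3172 of Sult1d1. Among receptors, partners and coregulators it held 376.7 of Esrrg, 22661 of Hnf4a, 512.7 of Hnf4g, 2453 of Ncoa3 and 715.3 of Ppargc1b. For lipid genes it held 1316 of Lipg and 749.5 of Pex11a, and for the colonocyte markers 18826 of Cdhr5, 6050 of Ceacam20 and 4431 of Mep1a. Genes patterned like Ppara stood at 211.3 for Celf3, 2232 for Kcnk5 and 16313 for Txnip in the same library. The other 3 were Celf3 in WT replicate 3, highest at 49.6, Hnf4a in WT replicate 1, lowest at 5904, and Plec in KO replicate 3, lowest at 13078 normalized counts.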

How the results depend on the processing

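Under every alternative run, Ppara and Nr1i3 stayed higher in KO, Angptl4 stayed lower, and none passed an adjusted p of 0.05. Log2 fold changes ran from 0.65 to 1.83 for Ppara, from 1.30 to 1.82 for Nr1i3 and from -1.81 to -0.94 for Angptl4. Unadjusted p was below 0.05 in 4 of 17 alternative runs for Ppara, 11 of 16 for Nr1i3 and 5 of 17 for Angptl4. These runs are the refits together with the exact permutation test, whose result for Nr1i3 is among the 11. Nr1i3 has no value under the filter of 10 reads in 4 libraries. The exact permutation test, two-sided, gave p = 0.114 for Ppara, 0.0571 for Angptl4 and 0.0286 for Nr1i3, the last being the smallest that 4 against 4 allows. Size factors from the listed genes shifted all log2 fold changes by a median of -0.16 (TMM) or -0.18 (DESeq2), and 0 of 62 named or listed genes changed sign. The lowest KO minus the highest WT value of Nr1i3, 0.0362 as deposited, was then -0.53 (TMM) or -0.86 (DESeq2), and 1 in reads with no scaling; these 3 were added after seeing the data. The difference of the log2 ratio of Angptl4 to Ppara ran from -3.31 to -1.71. Of the 23 listed pathway genes, 13 kept an unadjusted p below 0.05 and the same sign in the edgeR refit, beside 77.9% of all listed genes. With 1 library left out 6 to 18 did so, the 8 without KO replicate 4 standing beside 51.9% of all listed genes. Of the 6 PPAR receptors and coregulators, a count added after seeing the data, 1 to 4 did so with 1 library left out. For the other left-out libraries the share of all listed genes was not computed. Same-numbered libraries did not deviate together, with correlations of 0.054, -0.02, -0.19 and -0.24 for numbers 1 to 4. With the replicate block the edgeR log2 fold changes were 1.23 for Ppara, -1.40 for Angptl4 and 1.56 for Nr1i3, at unadjusted p of 0.0909, 0.0582 and 0.0555 and an adjusted p of 1 for each. Reads of 2 to 17 per library limit what Nr1i3 can show.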
